A study of Homo sapiens with 6 samples.

Results

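Replicate 1 was compared with replicate 2 within each of 3 Dicer genotypes of human embryonic stem cells, to describe which genes and cell programs followed the replicate number rather than the genotype. The 3 libraries numbered 1 were set against the 3 libraries numbered 2, paired by genotype, so that all 6 of the 6 libraries in the series entered as 3 pairs. The cells were the established embryonic stem cell line H1, either wild-type for Dicer, hemizygous for the S1344L substitution or homozygous for it, the mutants made with CRISPR-Cas9. Cells of all 3 genotypes had been kept 10 days without doxycycline and were irradiated 2 times with 254 nm light at 150 mJ/cm2 before Ago2 and the RNA bound to it were pulled down by antibody. The labels give no number of clones and do not say whether both libraries of a genotype were grown as separate cultures. The p-values of the replicate and genotype tests below rest on how far the 3 pair differences disagree, with 2 residual degrees of freedom. Part or all of the spread among the 6 libraries could be technical.

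Ago2 is the Argonaute protein that carries a microRNA to its targets, Dicer is the enzyme that cuts the microRNA from its precursor, and iCLIP sequences the RNA that stays crosslinked to the protein. The count of a gene in such a library therefore depends both on how much of its RNA the cells held and on how much of it was recovered with Ago2. Pluripotent stem cells in culture grow as attached colonies, are kept undifferentiated by Nodal and FGF signalling, and depend largely on glycolysis.

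The libraries held 38.2 M to 52.9 M counts over 16199 genes, and replicate 1 was the deeper library in the wild-type and homozygous pairs and the shallower in the hemizygous pair. All 8 pluripotency markers checked (POU5F1, SOX2, NANOG, LIN28A, DPPA4, TDGF1, L1TD1, DNMT3B) were listed. Their summed level was 7530 to 8870 CPM (counts scaled to a common library total) in every library. Of these 8 markers 0 were called as different between replicates, where 20.5% of all genes were called. The short lists of defining markers for endoderm (SOX17, FOXA2, GATA4, GATA6), trophoblast or amnion, and blood had 0 listed members. Wider lists for the first 2 lineages had 3 and 5, described below. Of 8 fibroblast or stromal markers the table lists 4, and 2 of these, COL1A1 and POSTN, were called higher in replicate 1. Among all genes 12% were called higher. The summed level of the 4 stromal markers in replicates 1 and 2 was 443 and 321 CPM in the wild-type pair. It was 491 and 327 in the hemizygous pair, and 298 and 283 in the homozygous pair. The endothelial marker TEK, the only one of 3 listed, stood at 67.7 and 27.2 CPM in the wild-type pair, 83.3 and 23.6 in the hemizygous and 27.1 and 21.2 in the homozygous. Whether these marker levels had a part in the results below was not tested, and in bulk libraries fewer cells of a type cannot be told apart from less RNA per cell.

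Many genes followed the replicate number, and edgeR called 1 for the genotype in the same model. With genotype as a block, 3322 of 16199 genes (20.5%) differed between replicates at a Benjamini-Hochberg adjusted p under 0.05 in edgeR's quasi-likelihood test. Of these, 1945 (12% of all genes) were higher in replicate 1 and 1377 (8.5%) were lower. In the same fit the genotype test called 1 gene (0.00617%), ASMTL, while 1276 genes had an unadjusted p under 0.05. The genotype count was 110 with DESeq2, 26 and 22 without wild-type replicate 1 or 2, 3 and 5 without hemizygous replicate 1 or 2, and 47 and 1396 without homozygous replicate 1 or 2. The share of called genes that were higher was 58.5% with TMM scaling, 37.5% with upper-quartile scaling and 39.6% with library size alone. Under these scalings the median log2 difference of all genes was -0.00, -0.08 and -0.07. The count rested on the wild-type and hemizygous libraries, and so did the calls of the single genes given below. With the wild-type pair left out it was 0, and with the hemizygous pair left out 2, of which 1 was among the 3322. It was 1 without hemizygous replicate 1, 3 without hemizygous replicate 2, 1140 without wild-type replicate 1 and 1077 without wild-type replicate 2, against 6266 and 6254 without homozygous replicate 1 or 2.

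Differences were moderate in size for most called genes. The median absolute log2 difference of the 3322 called genes was 0.494, and 117 higher and 213 lower genes differed by at least 1. Replicate 1 was higher by at least 1 in every pair for 15 genes and lower by at least 1 in every pair for 50. In 6420 genes (39.6%) the 3 replicate 1 libraries did not overlap the 3 replicate 2 libraries in CPM. Of the variation of a gene's log2 CPM, the replicate number took a median of 44.3% with 1 degree of freedom. The genotype took a median of 25.4% with 2 degrees of freedom, and the remainder 18.3% with another 2. The replicate number had the larger mean square in 11587 genes (71.5%).

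The wild-type and hemizygous pairs differed in like manner, and the homozygous pair less so. On the first principal component of log2 CPM, wild-type replicate 1 lay at 34.5 and hemizygous replicate 1 at 39.8, whereas homozygous replicate 1 lay at -3.15, nearer to the replicate 2 libraries at -20.6, -22.0 and -28.5. Across the 16199 genes, which are not independent replicates, the wild-type difference correlated with the hemizygous difference at a Pearson r of 0.741 and with the homozygous difference at 0.357, and the hemizygous with the homozygous at 0.476. These pairs share no library. At least 1 on the log2 scale separated the replicates for 824 genes (5.09%) in the wild-type pair, 933 (5.76%) in the hemizygous and 318 (1.96%) in the homozygous.

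**Figure D1:**
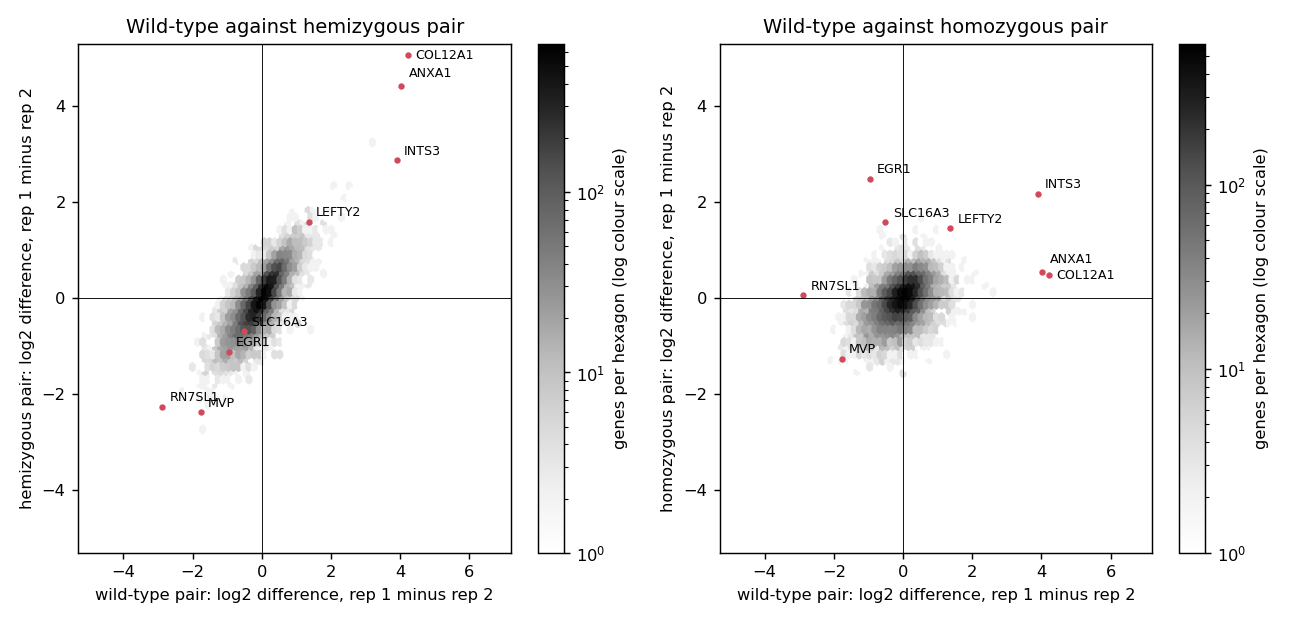
Log2 difference between replicate 1 and replicate 2 in the wild-type pair (x axis) against that in the hemizygous pair (left, y axis) and the homozygous pair (right, y axis), over 16199 genes shown as hexagons shaded by gene count, with 8 genes named in red. The cloud is drawn out along the diagonal on the left (r = 0.741) and is rounder on the right (r = 0.357), where COL12A1 and ANXA1 fall near 0 for the homozygous pair.

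The genes named for the smallest p differed in the same direction in all 3 pairs, as the rule required, some by like amounts and some not. LTN1, the ubiquitin ligase of ribosome-associated quality control, stood at 80.4, 87.5 and 70.9 CPM in replicate 1 of the wild-type, hemizygous and homozygous cells and at 44.4, 45.9 and 37.2 in replicate 2. The lowest replicate 1 library thus lay well above the highest replicate 2 library, a log2 difference of 0.91 ± 0.07 (SE, adjusted p = 0.012, edgeR quasi-likelihood test). LEFTY2, a secreted antagonist of Nodal, was at 14.6, 6.88 and 5.62 CPM in replicate 1 and 5.63, 2.24 and 2.02 in replicate 2. Its replicate groups overlapped slightly across genotypes, and the log2 difference within the pairs was 1.36, 1.60 and 1.46. SCD, the desaturase that makes monounsaturated fatty acids, was at 2360, 2465 and 1906 CPM in replicate 1 and 1372, 1273 and 1144 in replicate 2. PNPLA3, a lipase of lipid droplets, differed by 1.00 ± 0.10, and ROR1, a receptor for WNT5A, by 0.94 ± 0.10.

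INTS3, a subunit of the Integrator complex, had the largest difference among the 15 genes named as higher. In the annotation the gene LOC124904820 overlaps it, and the effect on its counts was not tested. INTS3 was at 9.02, 6.13 and 10.6 CPM in replicate 1 and 0.563, 0.797 and 2.31 in replicate 2. Every replicate 1 library thus lay above every replicate 2 library, with a difference of 2.94 ± 0.31. The other higher genes of this kind were DTNA, ETS1, AP4E1, CHM, DDX21, TEX15, PLOD2, PPP2R1B and AFF4. They include ETS1, a transcription factor, DDX21, a nucleolar RNA helicase, PLOD2, a lysyl hydroxylase of collagen, and AFF4, a scaffold of the super elongation complex.

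The genes named as lower in replicate 1 included nuclear RNA and many genes at low levels. MALAT1, a nuclear long noncoding RNA, stood at 171, 166 and 166 CPM in replicate 1 and 276, 275 and 286 in replicate 2, with no overlap and a difference of -0.74 ± 0.07 (adjusted p = 0.012, edgeR). MVP, the major vault protein, was at 4.96, 3.78 and 7.87 CPM in replicate 1 and 16.99, 19.7 and 18.9 in replicate 2, the largest difference of the 15 at -1.79 ± 0.20. MLXIPL, the carbohydrate-responsive transcription factor ChREBP, was at 7.44, 6.83 and 8.44 CPM against 18.9, 16.3 and 16.0. GSDMB, a gasdermin, showed pair differences of -0.82, -0.88 and -0.94. The others were AOC3, HPN, ADAM33, LINC01089, OVGP1, INMT, MLPH, SYNDIG1L, DPPA5, HMCN2 and ZDHHC11.

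DPPA5, an RNA-binding protein of pluripotent cells, differed by replicate in every genotype and was among the 6 genes of smallest p in the genotype test. It was at 3.24 and 8.03 CPM in the wild-type pair, 6.60 and 15.3 in the hemizygous and 12.3 and 22.4 in the homozygous. The level thus rose from wild-type to homozygous within both replicate numbers, and replicate 2 was above replicate 1 in each genotype. Replicate number took 39.2% of its variation and genotype 59.7%, with an adjusted p of 0.119 for genotype (edgeR). ASMTL, the only gene called for genotype (adjusted p = 0.00581, edgeR), stood at 12.1 and 17.3 CPM in the hemizygous pair against 0.714 to 1.00 elsewhere, and replicate number took 0.00576% of its variation.

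**Figure D2:**
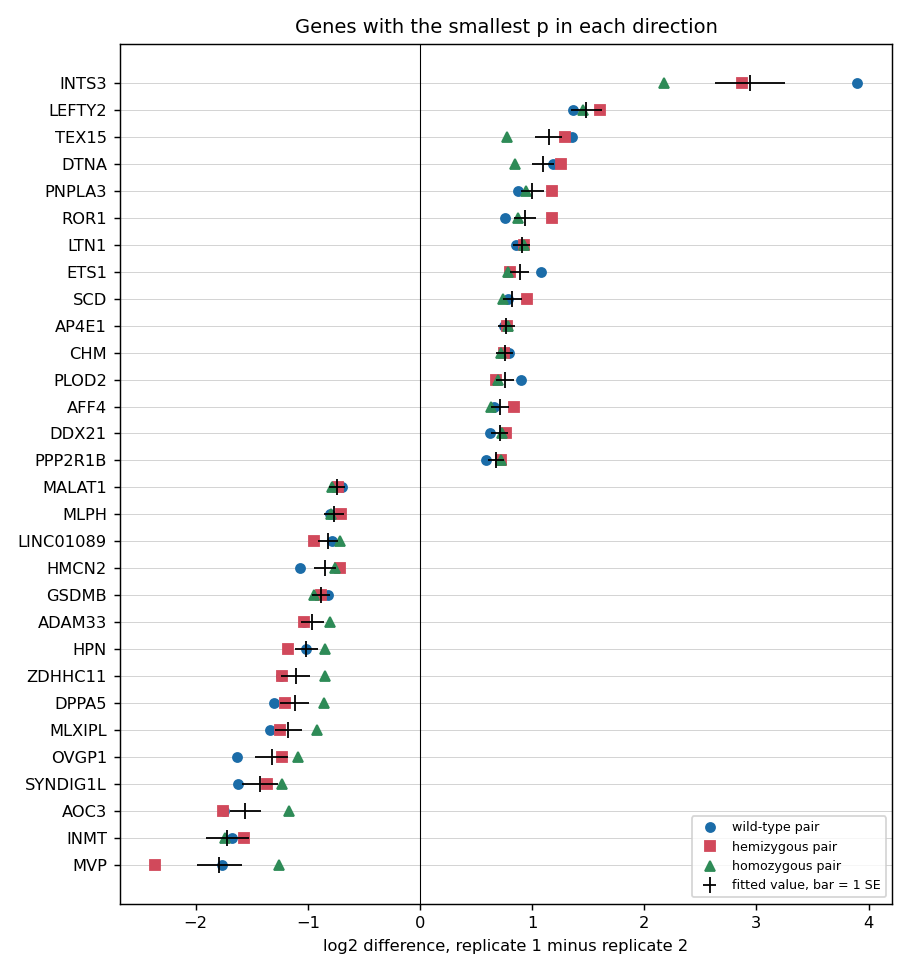
Log2 difference, replicate 1 minus replicate 2, of the 15 higher and 15 lower genes of smallest p, with a symbol for each genotype's pair and a black cross for the fitted value with a bar of 1 SE. All 3 pairs lie on the same side of 0 for each gene, as the choice of the genes required, from MVP at -1.79 to INTS3 at 2.94.

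Sterol genes were mostly higher in replicate 1. Cholesterol synthesis and uptake genes are switched on together by the sterol-regulated factor SREBP2 when membrane sterol is low. Of 24 listed genes 15 were called higher in replicate 1 and 0 lower, where 20.5% of all genes were called. The median difference was 0.58, against -0.00 for all genes, and by pair it was 0.59 for the wild-type, 0.66 for the hemizygous and 0.28 for the homozygous cells. HMGCS1, the synthase that feeds the mevalonate pathway, was at 693, 661 and 396 CPM in replicate 1 and 357, 297 and 278 in replicate 2, with no overlap and a difference of 0.87 ± 0.12 (adjusted p = 0.012, edgeR). SC5D, a sterol desaturase, was at 246, 249 and 191 CPM against 153, 158 and 139, and its groups did not overlap either. In both genes homozygous replicate 1 was the lowest of the replicate 1 libraries and nearest to its partner.

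Other called sterol genes included CYP51A1, DHCR7, IDI1, INSIG1, LSS, MSMO1, MVK, NSDHL, SQLE and STARD4, between 0.34 for NSDHL and 1.12 for CYP51A1. For IDI1, INSIG1 and MSMO1 the homozygous gap was smaller than the other gaps. Values of 8 of the 9 uncalled members were -0.00 for EBP, 0.13 for FDFT1, 0.19 for FDPS, 0.30 for HSD17B7, 0.03 for MVD, -0.23 for PMVK, 0.13 for SREBF2 and -0.14 for TM7SF2. SREBF2 encodes SREBP2 itself, and PMVK and TM7SF2 are enzymes of the same pathway.

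Promoter sequence was set beside the cholesterol list, since most of its members were called in the same direction. RefSeq's promoter table (GRCh38.p14) held the 250 bases before the start of 18 of the 24 genes and of 11412 measured genes. The CCAAT box, searched as CCAAT on both strands, was present in 15 of the 18 (83.3%) and in 34.5% of all promoters. It was in 9 of the 11 called and 6 of the 7 uncalled members. It was present in 34.6% of promoters of all genes called higher and 32.2% of those called lower. The SP1 motif GGGCGG, searched on both strands, was in 17 of the 18 (94.4%) and in 67.1% of all. The sterol element letters CACCCCAC, added after the data were seen and searched on both strands, were in 1 of the 18 (5.56%) and in 2.36% of all promoters. Letters for the TATA box, TEAD, AP-1, the E-box, NRF1, YY1 and ETS were searched as well. They were in 0 to 4 of the 18, the most for TEAD (22.2%, against 9.12% of all promoters). These are matches of letters, not tested sites. The 4 called sterol genes with the smallest p and a promoter in the table are printed 5′ to 3′ on the gene's strand, with CCAAT or its complement ATTGG in capitals. LSS lies at chr21:46228775-46229024 (minus strand), SC5D at chr11:121292521-121292770 (plus), HMGCS1 at chr5:43313413-43313662 (minus) and IDI1 at chr10:1056705-1056954 (minus).
LSS: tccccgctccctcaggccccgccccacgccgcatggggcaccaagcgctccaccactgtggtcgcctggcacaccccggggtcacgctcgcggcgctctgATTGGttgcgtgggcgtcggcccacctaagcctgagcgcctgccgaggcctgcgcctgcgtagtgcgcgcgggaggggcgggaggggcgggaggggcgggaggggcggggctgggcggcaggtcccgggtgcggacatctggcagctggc
SC5D: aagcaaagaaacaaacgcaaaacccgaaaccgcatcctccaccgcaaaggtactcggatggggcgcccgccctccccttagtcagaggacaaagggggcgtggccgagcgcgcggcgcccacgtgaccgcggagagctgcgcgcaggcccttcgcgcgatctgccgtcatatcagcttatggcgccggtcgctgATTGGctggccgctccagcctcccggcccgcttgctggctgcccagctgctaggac
HMGCS1: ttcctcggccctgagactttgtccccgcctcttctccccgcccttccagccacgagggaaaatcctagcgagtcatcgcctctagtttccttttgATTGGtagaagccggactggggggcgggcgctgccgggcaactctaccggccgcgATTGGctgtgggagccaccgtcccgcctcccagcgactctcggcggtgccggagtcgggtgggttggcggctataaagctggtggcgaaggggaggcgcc
IDI1: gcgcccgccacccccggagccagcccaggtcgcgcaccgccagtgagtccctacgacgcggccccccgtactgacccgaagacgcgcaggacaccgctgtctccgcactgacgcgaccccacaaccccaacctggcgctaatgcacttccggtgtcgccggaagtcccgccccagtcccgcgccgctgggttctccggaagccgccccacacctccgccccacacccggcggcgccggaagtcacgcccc
LSS has 1 match, 150 bases before the start, SC5D has 1 at 56 bases, HMGCS1 has 2, at 100 and 155 bases, and IDI1 has 0. All 4 genes were higher in replicate 1 in every pair, IDI1 at 163, 154 and 89.0 CPM against 73.1, 64.1 and 61.8.

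Chaperones of the endoplasmic reticulum moved in the same direction. Of 15 genes of the unfolded protein response 9 were called higher and 0 lower, with a median of 0.32. HSPA5, the master chaperone of this compartment, was at 702, 763 and 641 CPM in replicate 1 and 414, 431 and 433 in replicate 2, with no overlap and a difference of 0.72 ± 0.08 (adjusted p = 0.012, edgeR). CANX, the lectin chaperone calnexin, was at 10.2, 31.1 and 9.50 CPM against 4.89, 5.60 and 3.54, with hemizygous replicate 1 standing apart. SEL1L, a partner of the ubiquitin ligase that clears misfolded proteins, and DNAJC3, a co-chaperone, differed by 0.64 ± 0.09 and 0.49 ± 0.08. Of 20 genes of the ATF4 list 3 (15%) were higher and 0 lower, and of 11 cytosolic heat shock genes 3 (27.3%) were higher and 0 lower, against 12% higher among all genes.

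Of 23 basement membrane, integrin and other matrix genes 12 were called higher in replicate 1 and 1 lower, with a median of 0.41, where 12% of all genes were called higher. ITGB1, the shared beta subunit of most integrins, was at 776, 746 and 529 CPM in replicate 1 and 448, 398 and 375 in replicate 2. Every replicate 1 library was above every replicate 2 library, and the difference was 0.73 ± 0.10 (adjusted p = 0.012, edgeR). FBN2, a fibrillin, differed by 0.97 ± 0.14, FREM2 and FRAS1, which anchor epithelium to its basement membrane, by 0.78 ± 0.09 and 0.70 ± 0.10. LAMA5, a laminin chain, was the gene called lower, at 164, 166 and 270 CPM against 297, 303 and 294.

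Of 19 actin cytoskeleton genes 5 (26.3%) were called higher, 0 lower and 14 not, where 20.5% of all genes were called and 12% were higher. The 5 were CALD1, FLNA, FLNC, MYL9 and VCL. CALD1, which encodes caldesmon, was at 514, 468 and 305 CPM in replicate 1 and 216, 230 and 202 in replicate 2. Of 16 targets of YAP and TEAD, factors that respond to cell spreading, 6 were higher and 1 lower (43.8% called). CCN2, the best known of them, was at 64.3, 55.5 and 25.8 CPM against 22.0, 21.1 and 23.3, so that its rise lay in the wild-type and hemizygous pairs. Of 20 stromal genes 6 (30%) were higher and 0 lower, with a median of 0.40 in the wild-type pair, 0.52 in the hemizygous and 0.08 in the homozygous. These 6 were COL1A1, COL5A2, FBN1, LOX, POSTN and TAGLN. COL1A1 and POSTN are also among the 4 stromal markers summed above.

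COL12A1, a collagen of dense connective tissue, had the widest gap of the named genes. It was at 205 and 10.9 CPM in wild-type replicates 1 and 2, 264 and 7.84 in the hemizygous, and 16.0 and 11.5 in the homozygous. The fitted difference was 3.44 ± 0.86 (adjusted p = 0.033, edgeR), and it lost its call without each wild-type or hemizygous library, with adjusted p values of 0.073 to 0.24. The pairs differed by 4.22, 5.07 and 0.48. No gene, COL12A1 included, was called without the wild-type pair.

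Of 17 genes of Nodal and TGF-beta signalling, pathways that share SMAD proteins, 6 (35.3%) were called higher, 0 lower and 11 not, with a median of 0.29. Among all genes 12% were called higher and 8.5% lower. NODAL, the ligand, was at 53.8, 42.8 and 39.7 CPM in replicate 1 and 14.4, 22.7 and 24.3 in replicate 2, with no overlap and a difference of 1.16 ± 0.21 (adjusted p = 0.0166, edgeR). The TGF-beta receptors TGFBR1 and TGFBR2 differed by 0.29 ± 0.08 and 0.56 ± 0.14, while the Nodal receptors ACVR1B, ACVR2A and ACVR2B were not called, at -0.24, 0.06 and 0.10. Among the targets and inhibitors, LEFTY2, SKIL and SMAD7 differed by 1.48 ± 0.14, 0.51 ± 0.12 and 0.96 ± 0.18. Of 16 core pluripotency genes 1, LIN28B, was called higher and 1, the antisense gene FOXD3-AS1, lower. That is 12.5% called, against 20.5% of all genes. All 3 endoderm genes that the table lists, AFP, CXCR4 and HHEX, were called higher, at low levels of 0.742 to 4.41 CPM. None of the 8 WNT targets, 9 BMP targets, 6 neuroectoderm or 5 trophoblast and amnion genes was called by edgeR.

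Lists of proliferation and translation genes were called at shares from 15% to 40.9%, against 20.5% of all genes. Of 22 genes of G1/S and replication 8 were higher and 1, E2F1, lower, with RRM2, a subunit of ribonucleotide reductase, at 0.55 ± 0.08. Of 20 G2/M genes 2 were higher and 1 lower. Of 26 translation factors 6 were higher and 1 lower, among them EIF5, which acts in start codon selection, at 0.65 ± 0.14 and EIF4B, a helper of the cap-binding complex, at 0.44 ± 0.08. Of 81 cytosolic ribosomal protein genes 17 (21%) were called, a share near that of all genes, with 16 lower, 1 higher (RPL7L1) and a median of -0.24. RPLP2, a stalk protein of the large subunit, was at 399, 329 and 481 CPM in replicate 1 and 507, 510 and 572 in replicate 2. Its groups came close without a shared range, and the hemizygous pair was the widest for the list, at a median of -0.40 against -0.14 in wild-type and -0.18 in homozygous.

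Of 18 clustered protocadherins, which give neurons their surface identity, 7 (38.9%) were higher and 0 lower, against 12% higher among all genes. Their median was 0.52, and the called members had levels of 1.21 to 21.9 CPM. The counting of their shared exons is not given in the sources used here, so these rows may share reads. Of 14 genes of microRNA processing and silencing, the AGO and TNRC6 effectors included, 0 were called by edgeR, where 20.5% of all genes were called. DICER1 was at 169, 118 and 129 CPM in replicate 1 and 126, 96.4 and 118 in replicate 2, a difference of 0.28 ± 0.08 with an adjusted p of 0.0511 (edgeR). AGO2 was at 218, 277 and 268 CPM against 222, 231 and 199, and the wild-type pair lay at -0.02 (fitted difference 0.22 ± 0.10, adjusted p = 0.143, edgeR).

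**Figure D3:**
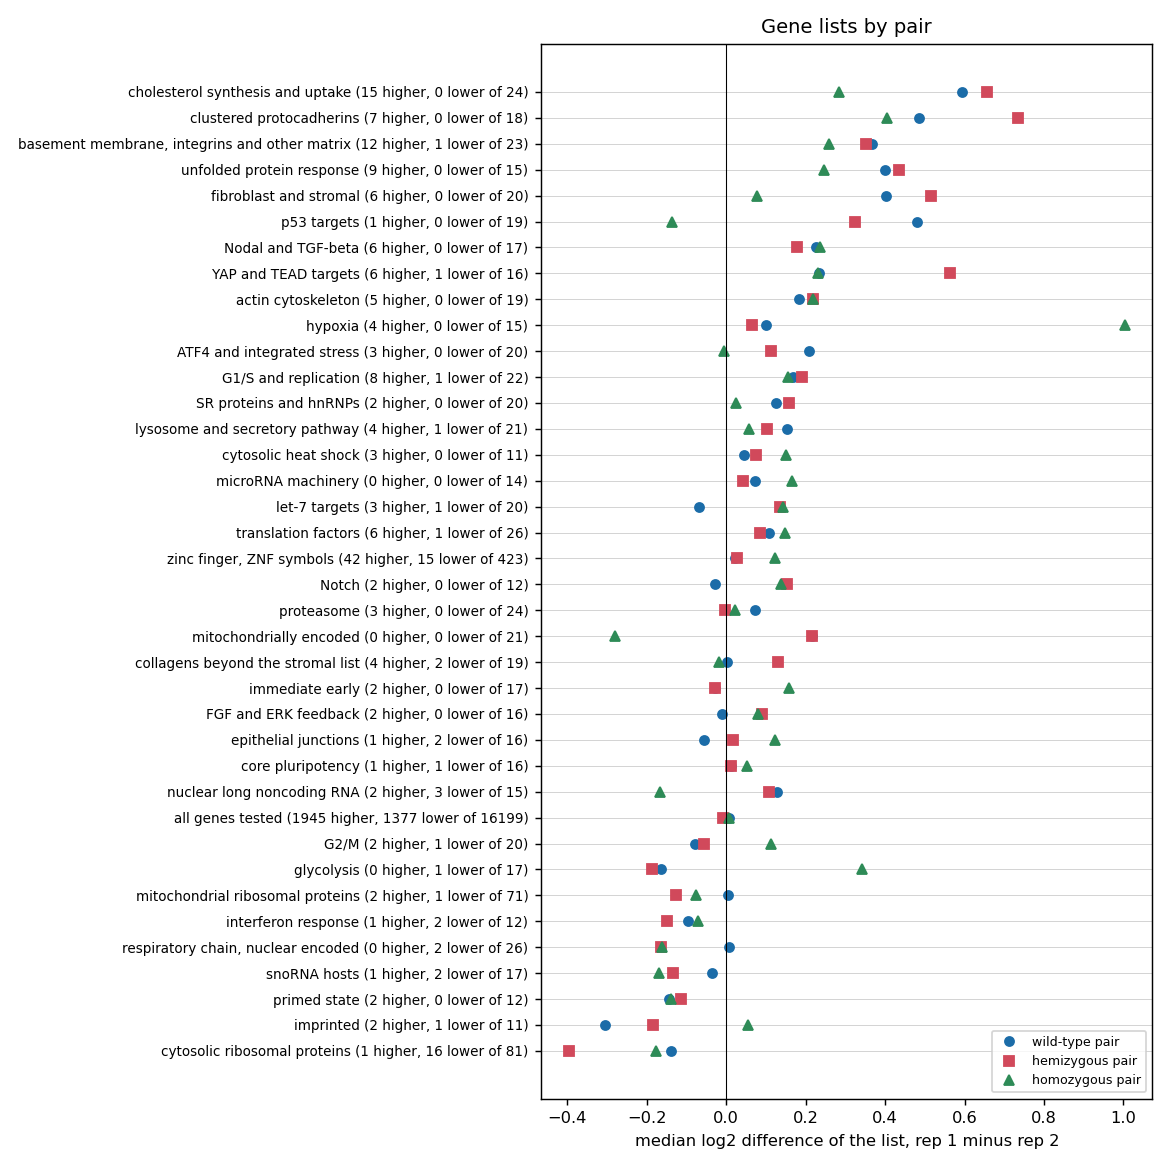
Median log2 difference, replicate 1 minus replicate 2, of each gene list with at least 10 measured members, with a symbol for each genotype's pair and the counts called higher and lower in each label. Cholesterol genes lie right of 0 in all 3 pairs (0.59, 0.66 and 0.28), while the homozygous pair stands apart for hypoxia (1.00) and on the other side of 0 for p53 targets (-0.14) and glycolysis (0.34).

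The span of a gene on the chromosome went with its difference in every pair. Among 13090 protein-coding genes, cut into 10 groups of 1309 by span, 3.13% of the shortest group (under 5.84 kb) were called higher and 10.7% lower, with a median of -0.14. In the longest group (over 182 kb) 26.0% were higher and 2.90% lower, with a median of 0.20. In the longest group the median was 0.17 for wild-type, 0.26 for hemizygous and 0.17 for homozygous cells, and in the shortest it was -0.11, -0.19 and -0.08. Across genes, span correlated with the difference at a Spearman rho of 0.255, 0.351 and 0.258 in these pairs. The order held within each of 5 classes of mean CPM, where the 524 longest genes of a class had medians of 0.143 to 0.233 and the 524 shortest -0.197 to -0.062.

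Other classes of transcript differed among themselves. Of 940 long noncoding RNA genes 26 were higher and 128 (13.6%) lower, with a median of -0.21. Of 1243 rows with only an Ensembl identifier 22 were higher and 198 (15.9%) lower, against 8.5% lower among all genes. Of 275 transcribed pseudogenes 8 were higher and 31 lower, and of 406 other pseudogenes 21 were higher and 14 lower. Median levels were 2.32 CPM for long noncoding RNA, 1.58 for the Ensembl rows and 27.8 for protein-coding genes. Gene span was not examined in these noncoding classes. NEAT1, the scaffold RNA of paraspeckles, was at 14.7, 16.0 and 18.5 CPM in replicate 1 and 27.1, 27.5 and 26.5 in replicate 2, with no overlap. Genes of chromosome 19, whose median span of 16.5 kb is the shortest of any chromosome here, had a median of -0.20 in the wild-type pair, -0.22 in the hemizygous and 0.01 in the homozygous. Chromosome 18, whose median span of 68.7 kb is the longest here, had 0.17, 0.14 and 0.11. Chromosome 4, at a median span of 54.3 kb, had 0.19, 0.21 and 0.06.

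**Figure D4:**
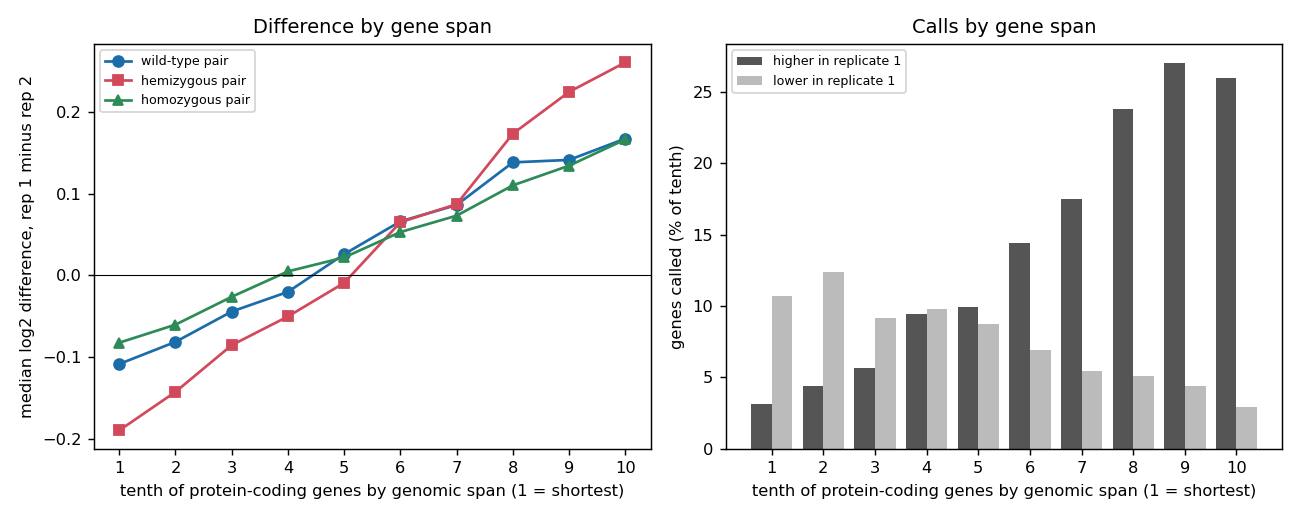
Protein-coding genes in 10 groups of 1309 by genomic span, from shortest to longest (x axis), with the median log2 difference of each pair on the left and the percent of genes called higher or lower in replicate 1 on the right. The medians rise with span in all 3 pairs, and the share called higher rises from 3.13% to 26.0%.

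The gap of the homozygous pair was then tested against the mean gap of the other pairs. This pair was set apart because earlier results of these same data had shown homozygous replicate 1 to follow its number less. The calls and p-values of this test, and the counts with another pair set apart, are therefore descriptive and not independent evidence. The test has 1 residual degree of freedom, which comes from how far the wild-type and hemizygous gaps disagree. The homozygous side is 1 pair, so the p-values do not measure the spread among homozygous libraries. In edgeR's quasi-likelihood test 339 genes (2.09%) differed, 144 (0.889%) with a larger and 195 (1.2%) with a smaller value of replicate 1 minus replicate 2 in the homozygous cells. In 223 of the 339 the homozygous pair had the sign opposite to both other pairs, and in 254 its absolute gap was smaller than both others. With the wild-type pair set apart in its place 0 genes were called (291 at an unadjusted p under 0.05), and with the hemizygous pair 3. The count was 1001 with upper-quartile scaling, 993 with library size alone and 169 with DESeq2.

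Of 15 hypoxia genes 6 had a larger gap in the homozygous pair and 0 a smaller one, where 0.889% of all genes had a larger one. The median difference was 1.00 in the homozygous pair against 0.10 in wild-type and 0.06 in hemizygous. SLC2A1, the glucose transporter GLUT1, was at 340 and 105 CPM in homozygous replicates 1 and 2, 164 and 115 in wild-type, and 169 and 123 in hemizygous, a difference of gaps of 1.21 (adjusted p = 0.00352, edgeR). BNIP3, a mitophagy receptor, was at 257 and 105 CPM in the homozygous pair and lower in replicate 1 of the others, at 60.8 and 90.3 in wild-type and 55.9 and 120 in hemizygous. BNIP3L, KDM3A, P4HA1 and PDK1 were the other 4. The 9 that did not pass included ADM, the peptide hormone adrenomedullin, which was higher in replicate 1 of all 3 pairs at 31.9 and 16.8, 24.4 and 9.20, and 15.4 and 7.95 CPM.

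Of 17 glycolysis genes 5 had a larger homozygous gap and 0 a smaller one, where 0.889% of all genes had a larger one. The 5 were ALDOA, ENO1, HK2, PGK1 and PKM. PGK1, phosphoglycerate kinase, was at 896 and 418 CPM in the homozygous pair, 431 and 433 in wild-type, and 434 and 457 in hemizygous. SLC16A3, the lactate exporter MCT4, had the smallest p among larger gaps, at 74.1 and 24.5 CPM in the homozygous pair against 16.95 and 24.1 and 16.7 and 26.9 (difference of gaps 2.19 ± 0.15, adjusted p = 0.000365, edgeR). DDIT4, a stress-induced inhibitor of mTORC1, was at 149 and 35.8 CPM there, 43.9 and 42.0 in wild-type and 34.7 and 45.7 in hemizygous. The immediate early gene EGR1 was at 17.1 and 3.00 CPM in the homozygous pair, while replicate 1 was the lower library in wild-type (2.02 and 3.97) and hemizygous (1.75 and 3.81). FOS, a partner in AP-1, was at 18.1 and 5.64 CPM there. Of 17 immediate early genes these 2 had a larger homozygous gap and 0 a smaller one. The median difference of that list was 0.16 in the homozygous pair and -0.03 in both other pairs. RN7SL1, the RNA of the signal recognition particle, was lower in replicate 1 than in replicate 2 of wild-type (12.5 against 92.2) and hemizygous cells (23.6 against 113), and was at 72.8 and 69.3 in homozygous cells. ONECUT1, a homeobox factor, was likewise at 12.3 and 38.7, 11.3 and 33.6, and 35.6 and 26.2.

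Of 19 p53 targets 5 had a smaller homozygous gap, 0 a larger one and 14 neither, where 1.2% of all genes had a smaller one. The 5 were CDKN1A, GDF15, MDM2, TNFRSF10B and ZMAT3. The median difference of the list was 0.48 for the wild-type, 0.32 for the hemizygous and -0.14 for the homozygous pair. CDKN1A, the cyclin-dependent kinase inhibitor p21, was at 112 and 44.6 CPM in wild-type cells, 75.7 and 45.0 in hemizygous cells and 32.8 and 46.2 in homozygous cells, a difference of gaps of -1.53 (adjusted p = 0.00723, edgeR). GDF15, a stress cytokine, was at 25.1 and 9.44, 18.4 and 8.54, and 5.02 and 10.2 CPM. Over all 3 pairs only FAS, the death receptor, was called among the p53 targets, at 0.88 ± 0.21. That is 5.26% of the 19, where the replicate test called 20.5% of all genes.

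Genes named for a smaller gap included COL12A1, ANXA1, TRIM22 and DTWD2. ANXA1, a membrane-binding annexin, was at 34.1 and 2.05 CPM in the wild-type pair, 25.8 and 1.16 in the hemizygous, and 2.67 and 1.80 in the homozygous. Both homozygous libraries lay with the replicate 2 libraries of the other genotypes. MYOF, a membrane repair protein, and INHBA, a subunit of activin A, shared this pattern, at 18.6 and 1.94, 15.7 and 1.69, and 1.94 and 1.58 CPM for MYOF and 8.0 and 1.84, 6.62 and 1.23, and 0.947 and 1.65 for INHBA. TEK, the endothelial marker given above, also had a smaller homozygous gap, with a difference of gaps of -1.22 (adjusted p = 0.0165, edgeR).

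**Figure D5:**
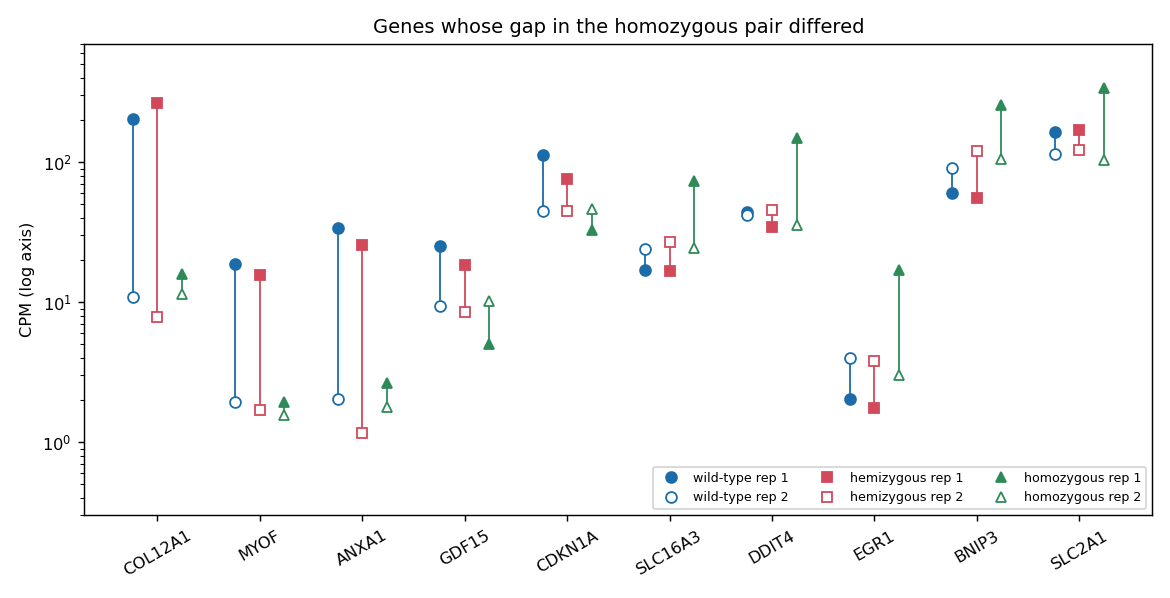
CPM (log axis) of 10 genes whose replicate gap in the homozygous pair differed from the other pairs, with filled symbols for replicate 1, open symbols for replicate 2 and a line joining each genotype's pair. COL12A1, MYOF and ANXA1 have long lines in wild-type and hemizygous cells (205 and 10.9 CPM for wild-type COL12A1) and short ones in homozygous cells, while EGR1, DDIT4, SLC16A3, BNIP3 and SLC2A1 are highest in homozygous replicate 1.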

How the data were processed

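RNA recovered with Ago2 by iCLIP was measured in 6 libraries. The authors deposited whole-number read counts per gene without normalization. The genome build was hg38, per the submitters' processing notes. For aligner, counting tool, annotation, strand and molecular identifiers nothing is stated (not given in the sources used here), so reads of overlapping or antisense genes and near-identical copies cannot be told apart with certainty. IgG pull-downs and input RNA were not used here. The lowest row total was 132 and 0 columns were left unused.

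TMM-scaled counts were fitted by quasi-likelihood in edgeR 4.0.16 (R 4.3.3), with its F test, over all 16199 rows, which filterByExpr kept, in a model of genotype and replicate number. Genes were called at an adjusted p under 0.05. Log2 pair differences use a prior count of 2. A second model gave the homozygous gap its own term. Of the rows, 14750 matched a RefSeq symbol (GRCh38.p14), 1243 held an Ensembl identifier and 206 matched neither. Genes were named by the 15 smallest p values per direction with a mean of at least 1 CPM, the 6 for genotype, the 5 per direction for the gap, and up to 4 called genes per list. Some genes that the rule or the lists hold are not reported here. Further list members were chosen after their values were seen. The members, the lists and the pair set apart in the gap test were chosen with earlier results of these data known. Tried as alternatives were scaling by RLE, by upper quartile and by library size, no filter or 20 counts in 2 libraries, DESeq2 1.42.0, limma-voom (limma 3.58.1), other blocks, and libraries or pairs left out. How much counting error adds at low CPM was not tested, and with no statement on molecular identifiers the number of distinct molecules counted is unknown. The procedure was tested on simulated data.

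The replicate numbers come from the sample labels and are paired here by genotype. The correlation of pair differences across genes (0.741, 0.357 and 0.476) shows how far same-numbered libraries deviate together.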

Additional observations from a re-analysis of the deposited data

Results flagged for a closer look

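The gap between replicates differed between the homozygous pair and the other pairs for 339 genes in edgeR's test of the difference itself. Values below are the homozygous gap minus the mean of the other gaps, on the log2 scale, for genes named by rule and for called members of 8 lists.

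The largest positive values were EGR1 at 3.55, RN7SL1 at 2.63, DDIT4 at 2.23, SLC16A3 at 2.19, BNIP3 at 2.13, FOS at 2.07 and ONECUT1 at 2.06. Glycolytic and hypoxia genes followed with HK2 at 1.34, SLC2A1 at 1.21, ALDOA at 1.14, PGK1 at 1.14, KDM3A at 0.98, PDK1 at 0.90, BNIP3L at 0.89, P4HA1 at 0.88, ENO1 at 0.85 and PKM at 0.77. ID2, a BMP target that inhibits basic helix-loop-helix factors, was at 1.25. BAMBI, outside the genes chosen above and the other BMP target called in this test, was at -0.81.

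Among the largest negative values were COL12A1 at -4.17, ANXA1 at -3.69, INHBA at -3.06 and MYOF at -2.94. The p53 targets were at -2.28 for GDF15, -1.53 for CDKN1A, -0.97 for ZMAT3, -0.66 for TNFRSF10B and -0.63 for MDM2. The stromal, YAP and TGF-beta genes were at -1.32 for CCN2, -1.32 for FBN1, -1.18 for COL5A2, -1.06 for TAGLN, -0.90 for SMAD7, -0.87 for F3, -0.73 for VIM and -0.65 for CCN1. The sterol genes MSMO1, INSIG1 and IDI1 were at -0.75, -0.72 and -0.69. AFP, the fetal albumin homologue, was at -2.02, TRIM22 at -1.84, DTWD2 at -1.62 and SLC7A11, the cystine transporter, at -1.53.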

How the results depend on the processing

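The count of 3322 genes for replicate number ranged from 2511 to 3449 over other scalings, filters, tools and no genotype block. It ranged from 1 to 6266 over single libraries left out, and was 0 without the wild-type pair (4141 at an unadjusted p under 0.05 in edgeR), 2 without the hemizygous pair and 6252 with the wild-type and hemizygous pairs only. The genotype count of 1 was also 1 with no replicate block, 110 with DESeq2, and 3 to 1396 over single libraries left out, the highest without homozygous replicate 2. The gap count of 339 was 1001 with upper-quartile scaling, 993 with library size, 169 with DESeq2, 0 with the wild-type pair set apart (291 at an unadjusted p under 0.05 in edgeR) and 3 with the hemizygous. All 339 genes were among those called under both wider scalings. The cause was not tested. The gap test could not be fitted with a library left out, since no residual degree of freedom is left. For named genes, 2014 replicate values kept their call or its absence under an alternative, 761 lost it, 30 gained it and 33 changed sign. Those that changed sign were uncalled genes near 0. Of 288 list medians under an alternative 61 moved by more than the SD of the 3 pair medians, 20 of them with upper-quartile and 18 with library-size scaling. Under upper-quartile and library-size scaling ZNRF3 was at -0.058 and -0.052, AXIN2 at -0.061 and -0.055, RAN at -0.035 and -0.029, and MT-CO2 at -0.069 and -0.063. MT-CO2 was at -0.0055 with no genotype block. Without the wild-type pair KRT18 was at 0.025, MT-CO1 at -0.020 and MT-CO2 at -0.11. Without the hemizygous pair ZIC1 was at 0.058, MT-CO1 at -0.013 and MT-CO2 at -0.078. With the wild-type and hemizygous pairs only, ZNRF3 was at -0.028 and AXIN2 at -0.11. Over single libraries left out the ranges were -0.028 to 0.042 for ZNRF3, -0.11 to 0.093 for AXIN2, -0.021 to 0.32 for MT-CO1, -0.11 to 0.18 for MT-CO2, -0.27 to 0.024 for KRT18 and -0.27 to 0.070 for ZIC1.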
